A study of Gallus gallus with 10 samples.

Results

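The posterior area opaca, the extraembryonic tissue at the hind border of the chicken embryo, was compared here with embryonic tissue of stage-matched embryos in poly-A RNA-seq libraries. Library AC held area opaca without exogenous Otx2 and library AO held area opaca with it, and each was read against the same 8 embryonic libraries. A gene was taken as one that sets the extraembryonic tissue apart where AC and AO both lay above, or both below, every embryonic library. Of 16915 genes with enough reads to be tested, 4988 met this rule, 2688 of them higher and 2300 lower in the area opaca.

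As background, the area opaca surrounds the translucent central disc in which the embryo forms, and its cells lie directly on the yolk. Its endoderm becomes the yolk sac epithelium, which takes up and digests yolk, exports lipoproteins and does much of the early work of a liver and an intestine. Its mesoderm forms the blood islands, where the first red cells and vessels arise, and its ectoderm contributes to the chorion. A neural tube, somites, a notochord and a heart do not form there.

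The study electroporated pCAGGS vectors, in which a broadly active promoter drives the insert, into the epiblast at stage 4/5 and cultured the embryos at 38 °C to stage 10 to 11, and NewCT1 may be an exception, given with the libraries. Embryos given exogenous Otx2 received pCAGGS-mOtx2, encoding the mouse transcription factor, at 0.25 µg together with pCAGGS-EGFP at 0.2 µg. In control embryos, by the study's methods, a pCAGGS vector without insert took the place of pCAGGS-mOtx2 beside the EGFP marker. Each library was a pool of tissue from 4 embryos. CH1 and CH2 held the midbrain and hindbrain region without exogenous Otx2 and OH1 and OH2 the same region with it, while NewCT1 and CT2 held the posterior trunk region around the sinus rhomboidalis without and OT1 and OT2 with exogenous Otx2. The labels of the trunk controls conflict, since the title of NewCT1 says not electroporated and its treatment names EGFP, whereas the treatment of CT2 names none. EGFP was at 1.12 TPM in NewCT1 and 15328 TPM in CT2, and both were used as CT. The area opaca thus had 1 library per treatment, and the spread between AC and AO holds any effect of Otx2 as well as the spread between pools. A bulk library cannot tell fewer cells of a type from less RNA per cell, which holds for every result given here.

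Between 28606038 (NewCT1) and 40806402 (AO) reads were counted per library. Levels are given as the deposited TPM (transcript abundance scaled for transcript length and library total), with embryonic values always in the order CH1, CH2, OH1, OH2 and then NewCT1, CT2, OT1, OT2. Fold changes are log2 values of area opaca over the mean of the 4 embryonic groups, fitted on TMM-scaled read counts with edgeR, and a gene was called at an adjusted p below 0.05. TPM and TMM scaling differed by tissue, with TMM factors of 0.9045 for AC and 0.8939 for AO and up to 1.058 in embryonic libraries. The median log2 fold change of all genes was 0.02 in the fit and −0.20 on log2(TPM + 1), and the share of called genes that were higher in the area opaca was 56.0% in the fit and 27.1% on log2(TPM + 1). Small differences therefore have no fixed direction, and the counts of genes called in each direction are those under TMM.

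The vectors were read first as a check of the labels. Mouse Otx2 had 0 TPM in AC and 139 in AO, 0, 0, 97.4 and 160.3 in the midbrain-hindbrain libraries and 0, 0, 334 and 529 in the trunk libraries. AC held 0 reads of it and AO 2595 reads, as labelled. EGFP was at 11795 TPM in AC and 2571 TPM in AO, so vector transcripts were present in both pools of area opaca. Chicken OTX2, the endogenous gene of the anterior neural tube, had 0.889 TPM in AC and 0.0846 in AO, 80.2, 63.2, 87.8 and 91.8 in the midbrain-hindbrain libraries and 0.0647, 0.337, 4.46 and 5.37 in the trunk libraries. Its level in AC and AO lay within the range of the trunk libraries and far below the midbrain-hindbrain libraries.

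Defining markers of yolk sac endoderm and blood were high in the area opaca, as its label would have it, and some embryonic libraries carried the same transcripts. The summed level of the yolk sac endoderm markers TTR, APOA1, APOB and HNF4A was 32946 TPM in AC and 43906 TPM in AO, against 583 (OH2) to 12225 TPM (OT1) in embryonic tissue, and 4 of 4 were called higher. Blood markers summed to 26946 and 17901 TPM, against 53.1 (OH2) to 12047 TPM (OT1). Extraembryonic ectoderm markers were split, with KRT18 called higher and GATA3 lower. Their sum was 3008 and 3469 TPM, against 1195 (CH2) to 2996 TPM (OT1). The endothelial markers KDR, CDH5 and PECAM1 summed to 166 and 258 TPM, against 63.9 (NewCT1) to 142 TPM (OT2), and 2 of 3 were called higher. The leukocyte markers PTPRC and CSF1R summed to 1.69 and 2.29 TPM, with OT1 between them at 2.25 TPM. The neural markers SOX1, SOX2, SOX3 and PAX6 summed to 7.12 and 6.91 TPM, against 21.9 (OT1) to 195 TPM (OH2), and the heart markers TNNT2 and ACTC1 to 15.5 and 25.4 TPM, against 4.16 TPM in NewCT1 and 2623 TPM in OH2. OT1 and, to a smaller degree, OT2 and CT2 stood apart from the other embryonic libraries by their yolk sac endoderm transcripts. How much tissue of the area opaca these trunk pools held was not tested, and counts without OT1 and OT2 are given beside the main ones.

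In the test, 3197 genes were called higher in the area opaca (18.9% of all tested, the background for every count of higher genes below) and 2515 were called lower (14.9%), together 33.8%. Called in the same direction against the midbrain-hindbrain and against the trunk separately were 1517 higher genes (8.97%) and 1223 lower genes (7.23%). On the same side of all 8 were 15.9% of the tested genes as higher and 13.6% as lower, which is a description of the same values and carries no test. Of these members, 2287 higher and 1855 lower genes were also called. Differences from the head were more numerous, with 3539 genes higher and 3113 lower, than differences from the trunk, with 1663 higher and 1347 lower. The counts depended on single libraries. Without AO the called genes fell to 1923 higher and 1731 lower. Against both regions, higher genes numbered 546 without AO and 705 without NewCT1, and lower genes 811 without AC, 682 without AO and 609 without NewCT1. Without OT1 and OT2, an alternative chosen after seeing the data, 3753 genes were called higher and 3044 lower. On the same side of the 6 embryonic libraries left lay 4088 and 3601 genes, counts that could not fall with fewer libraries in the rule.

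The rule has a sharp edge, and the genes next to it were those whose libraries nearly touched. MRPS25, of the mitochondrial ribosome, was just inside with 64.6 and 53.99 TMM-scaled CPM (read counts relative to library size) in AC and AO and 53.99 in OT2, the nearest embryonic library. CSAD was just outside with 53.94 CPM in AO and as much in OT1. On the lower side HSD17B12, with 148 CPM in AO and in OT2, was just inside, and CMSS1, with 25.9 CPM in AC and in OT1, just outside. A narrower set held the 1101 higher and 797 lower genes that met the rule, were called overall and against both regions, had a symbol and reached 10 TPM in the higher tissue.

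**Figure D1:**
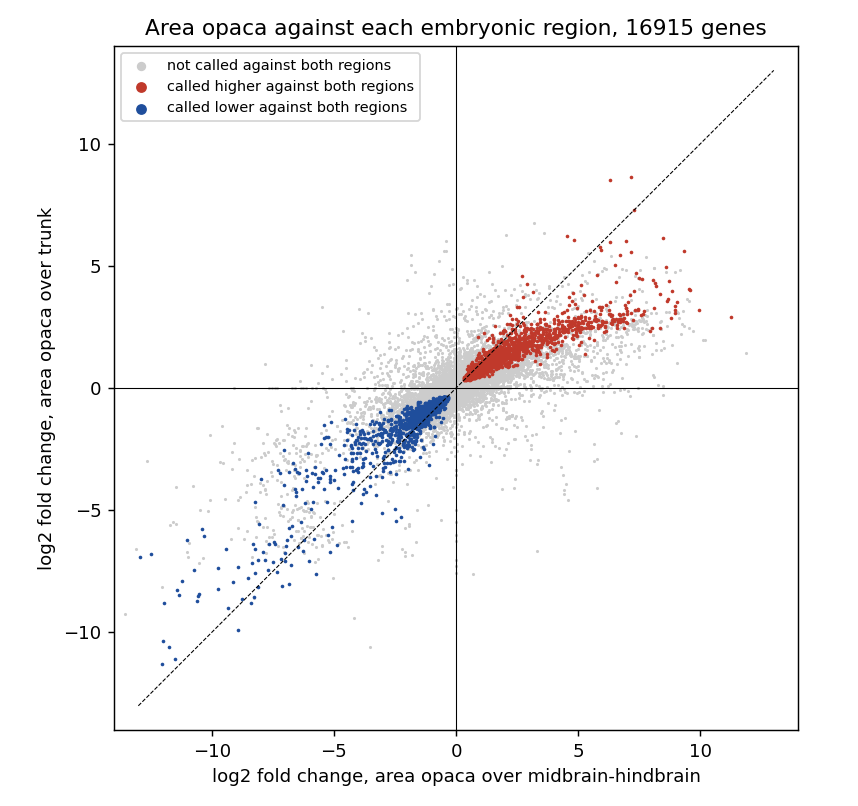
Log2 fold change of area opaca over midbrain-hindbrain (x axis) and over trunk (y axis) for each of the 16915 tested genes, with one point per gene, red and blue for genes called higher and lower against both regions, grey for the rest and a dashed line where both folds are equal. Genes called higher (1517) lie in the upper right, genes called lower (1223) in the lower left, and the spread along the head axis is wider than along the trunk axis.

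The 15 genes with the largest log2 fold changes among the 1101 were CYP4B7, CDHR5, IFI6, AQP10, SLC15A1, ITIH2, HAAO, CALB1, RFESD, CA13, CL2, SMLR1, ANKS4B, SERPIND1 and GFI1B, with values from 5.25 to 6.41. Against the trunk alone the same 15 ranged from 2.47 to 4.46. Several act at an absorptive surface. SLC15A1, the peptide transporter of the intestinal brush border, had 114 TPM in AC and 17.1 in AO, 0.191, 0.28, 0.232 and 0.316 in the midbrain-hindbrain libraries and 0.873, 4.62, 7.06 and 1.59 in the trunk libraries (log2 fold change 6.03, SE 0.69, adjusted p = 0.000716). CDHR5 and ANKS4B, both components of the links between microvilli, were at 17.8 and 11.1 TPM and at 39.8 and 48.2 TPM in AC and AO, and did not pass 2.47 and 14.8 TPM in any embryonic library. CALB1, an intracellular calcium buffer of epithelia that absorb calcium, had 77.3 TPM in AC and 17.4 in AO, 0.182, 0.283, 1.11 and 0.179 in the midbrain-hindbrain libraries and 2.996, 3.42, 4.66 and 4.18 in the trunk libraries. AC was several times above AO for SLC15A1, CALB1 and the water and glycerol channel AQP10. That both area opaca libraries exceeded every embryonic library for these genes follows from the rule that chose them. ITIH2, a plasma protein that binds hyaluronan, showed the reverse order, with 87.3 TPM in AC and 375 TPM in AO against at most 52.0 TPM. CA13, a carbonic anhydrase, had 445 TPM in AC and 362 in AO, 2.68, 4.64, 2.72 and 0.487 in the midbrain-hindbrain libraries and 42.3, 52.6, 102 and 24.9 in the trunk libraries (log2 fold change 5.43, SE 0.51, adjusted p = 0.000437). Its 2 area opaca values were close to each other and well clear of OT1, the highest embryonic library. SERPIND1, the plasma inhibitor heparin cofactor II, stood at 261 and 397 TPM against 0.321 to 74.7 TPM. GFI1B was the one blood regulator among the 15 and is described with the blood genes.

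Carriers of the blood plasma and of lipids were the most abundant group that set the tissue apart. Of 22 tested genes 20 were called higher and 0 lower, with a median log2 fold change of 4.16 beside 0.02 for all genes, 13 were called against both regions and 19 lay above all 8 embryonic libraries. TTR, which carries thyroid hormone and the retinol carrier, had 18859 TPM in AC and 24394 in AO, 420.0, 665, 972 and 379 in the midbrain-hindbrain libraries and 1081, 2386, 4814 and 4852 in the trunk libraries (log2 fold change 4.33, SE 0.32, adjusted p = 0.000339, gene on chromosome 2 at 105860150 to 105869209 in GRCg7w). Every embryonic value lay below the AC value, and the trunk libraries OT1 and OT2 came nearest. APOA1, the main protein of high-density lipoprotein, had 13459.6 TPM in AC and 18580.2 in AO, 187, 259.6, 789 and 203 in the midbrain-hindbrain libraries and 1025, 2968, 7184 and 3571 in the trunk libraries (log2 fold change 4.22, SE 0.46, adjusted p = 0.000631). The midbrain-hindbrain libraries were again lowest, and OT1 was nearest to AC. APOB, the backbone of very-low-density lipoprotein, had 553 TPM in AC and 872 in AO, 0.0702, 1.58, 29.5 and 0.32 in the midbrain-hindbrain libraries and 45.4, 109, 179 and 84.3 in the trunk libraries (log2 fold change 5.53, SE 1.08, adjusted p = 0.00626). Here CH1 and OH2 were close to 0, while the difference from the trunk alone was not called (log2 fold change 3.08, adjusted p = 0.141).

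Most other lipoprotein and plasma genes had their highest embryonic value in OT1. APOC3, which slows lipoprotein lipase, was at 5465 and 8522 TPM, against 14.7 TPM in CH1 and 2750.1 TPM in OT1, and APOA2, counted with the apolipoprotein family, at 3385 and 3618 TPM against 18.0 to 1320.5 TPM. TF, the iron carrier transferrin, was at 3639.6 and 5224 TPM against 249.7 to 2428 TPM (log2 fold change 3.26, SE 0.41, adjusted p = 0.00102). The fibrinogen chains were high in both area opaca libraries, with 238 and 398 TPM for FGA, 1642 and 2615 TPM for FGB and 1279 and 934 TPM for FGG. OT1 was the highest embryonic library for each, with 118, 852 and 587 TPM, and all 3 chains were called against both regions. AFP, the fetal plasma carrier, had 135 TPM in AC and 43.2 in AO, 0, 0.565, 1.92 and 0.0333 in the midbrain-hindbrain libraries and 6.69, 8.13, 41.6 and 11.4 in the trunk libraries (log2 fold change 5.36, SE 0.84, adjusted p = 0.0024), so that AO was only just above OT1. The exceptions were ALB and CP. Albumin (ALB) was at 1.87 and 0.399 TPM and ceruloplasmin (CP), a copper-carrying oxidase, at 32.1 and 21.6 TPM, and neither was called (adjusted p = 0.112 and 0.186). The ALB value without AC had the opposite sign (log2 fold change −0.31). The summed level of all 25 genes of the list, tested or not, was 46828 TPM in AC, 63920 TPM in AO, 1059 TPM in CH1 and 19888 TPM in OT1. Among abundant genes outside the lists, chosen after their values were seen, the retinol carrier RBP4A had 5418 and 7387 TPM against 31.7 to 2870.2 TPM, and MT4, a metal-binding metallothionein, 7877 and 5339 TPM against 58.0 to 3166 TPM. Both were called against both regions.

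**Figure D2:**
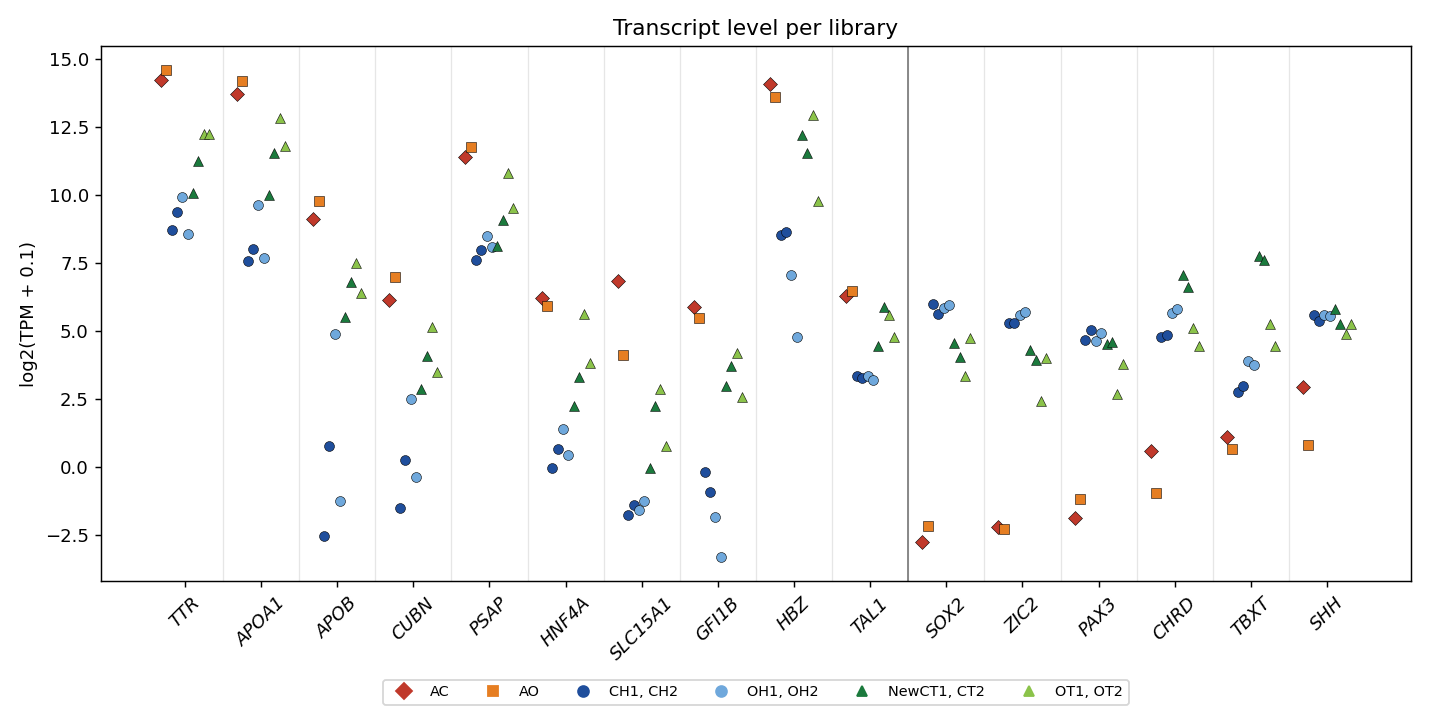
Level as log2(TPM + 0.1) (y axis) of 10 higher and 6 lower genes (x axis), one point per library, with diamonds and squares for AC and AO, circles for midbrain-hindbrain and triangles for trunk. TTR lies between 18859 and 24394 TPM in the area opaca and at most 4852 TPM in embryonic tissue, and the reverse order holds for SOX2, with 0.122 TPM in AO and at least 10.1 TPM in embryonic tissue.

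Genes for the uptake of yolk and the handling of its lipids showed the same direction. Of 19 tested, 15 were called higher and 1 lower, with a median log2 fold change of 2.54. CUBN and AMN encode the paired receptor cubilin and amnionless, which takes up proteins and lipoproteins. CUBN had 69.6 TPM in AC and 125 in AO, 0.252, 1.1, 5.57 and 0.674 in the midbrain-hindbrain libraries and 7.11, 16.7, 34.9 and 11.1 in the trunk libraries (log2 fold change 4.58, SE 0.67, adjusted p = 0.00178). AMN had 73.9 TPM in AC and 56.3 in AO, 0.96, 0.187, 4.06 and 0.141 in the midbrain-hindbrain libraries and 6.92, 12.0, 23.4 and 7.98 in the trunk libraries (log2 fold change 4.37, SE 0.64, adjusted p = 0.00177). Both were called against both regions, and OT1 was again the embryonic library nearest to the area opaca. LRP2, the large receptor megalin, was at 121 and 243 TPM against 16.3 to 105 TPM, and DAB2, the adaptor that links such receptors to clathrin, at 315 and 299 TPM against 6.81 to 128 TPM (log2 fold change 3.94, SE 0.30, adjusted p = 0.000344). SCARB1, which exchanges cholesterol with high-density lipoprotein, was at 149 and 234 TPM against 5.8 to 101 TPM. Fat synthesis and storage were represented by MOGAT1, an acyltransferase that makes diacylglycerol, at 139.8 and 306 TPM against 8.3 to 87.8 TPM, and by the lipid droplet protein CIDEC, at 66.7 and 43.7 TPM against 4.83 to 25.5 TPM. FABP2, the intestinal fatty acid binding protein, had 76.0 TPM in AC and 65.9 in AO, 1.11, 0.319, 0.766 and 0.376 in the midbrain-hindbrain libraries and 7.91, 11.3, 21.9 and 7.31 in the trunk libraries (log2 fold change 4.87, SE 0.42, adjusted p = 0.000384). FABP7, the fatty acid binding protein of the brain, was the 1 called lower, with 233 TPM in AC and 390.0 in AO, 528, 532, 421 and 574 in the midbrain-hindbrain libraries and 1624, 1302, 548 and 650.3 in the trunk libraries (log2 fold change −0.87, SE 0.19, adjusted p = 0.0094). VLDLR, the receptor for very-low-density lipoprotein and, in the hen's oocyte, for yolk precursors, was called higher (log2 fold change 1.49, SE 0.33, adjusted p = 0.00994) although OT1, at 79.1 TPM, exceeded AC at 53.0 TPM and AO at 43.2 TPM. The calls of VLDLR and FABP7 were lost without AC.

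Lysosomal genes, whose products digest what is taken up, were called higher in 18 of 23 cases and lower in 0, with a median log2 fold change of 1.03. PSAP, the precursor of the saposins that help degrade sphingolipids, had 2665 TPM in AC and 3448 in AO, 194, 249, 355 and 269.8 in the midbrain-hindbrain libraries and 279, 534, 1763 and 734 in the trunk libraries (log2 fold change 3.11, SE 0.30, adjusted p = 0.000464). The area opaca values exceeded all 8, and OT1 lay several times above the remaining embryonic libraries. NPC2, which carries cholesterol inside the lysosome, had 1767 TPM in AC and 1634 in AO, 63.1, 96.8, 135 and 82.9 in the midbrain-hindbrain libraries and 153, 407, 2129.7 and 353 in the trunk libraries (log2 fold change 3.16, SE 0.52, adjusted p = 0.003). Its OT1 value exceeded both area opaca values, and its difference from the trunk was not called (adjusted p = 0.0865). The cathepsins CTSV, CTSB and CTSZ, which are lysosomal proteases, were at 3909 and 2515, 895 and 1182, and 600.4 and 565 TPM in AC and AO, and each was called against both regions. OT1 overlapped AO for CTSV (2869 TPM). Of 12 tested cathepsin genes, 8 were called higher and 0 lower.

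Regulators of endoderm were called higher in 12 of 20 cases and lower in 0, with a median log2 fold change of 1.74. HNF4A, the nuclear receptor that drives liver and yolk sac endoderm genes, had 74.5 TPM in AC and 60.4 in AO, 0.88, 1.46, 2.54 and 1.26 in the midbrain-hindbrain libraries and 4.54, 9.86, 48.9 and 13.9 in the trunk libraries (log2 fold change 4.12, SE 0.43, adjusted p = 0.000549). CREB3L3, a membrane-bound factor of hepatic lipid metabolism, had 82.5 TPM in AC and 104 in AO, 0.526, 0.787, 2.67 and 0.877 in the midbrain-hindbrain libraries and 5.41, 12.1, 47.4 and 19.8 in the trunk libraries (log2 fold change 4.70, SE 0.40, adjusted p = 0.000384). Both area opaca libraries were above all 8 for either gene. CEBPA, which acts with HNF4A in the liver, was lower in level, at 18.2 and 25.1 TPM, above all 8, and was called against both regions. The GATA factors differed among themselves. GATA6, of yolk sac endoderm and heart, had 40.7 TPM in AC and 53.9 in AO, 15.2, 27.2, 20.8 and 20.1 in the midbrain-hindbrain libraries and 5.21, 15.02, 37.1 and 32.4 in the trunk libraries (log2 fold change 1.59, SE 0.30, adjusted p = 0.0052), whereas GATA4 had 17.8 TPM in AC and 19.7 in AO, 8.77, 35.2, 16.1 and 22.1 in the midbrain-hindbrain libraries and 3.95, 10.6, 63.5 and 39.5 in the trunk libraries (log2 fold change 0.22, SE 0.49, adjusted p = 0.77). GATA4 was in the middle of the embryonic range, with OT1 and OT2 above AC and AO, and was not called. CDX1, an intestinal and posterior regulator of the caudal family, had 27.8 TPM in AC and 66.4 in AO, 0.854, 1.02, 1.86 and 0.899 in the midbrain-hindbrain libraries and 2.29, 8.4, 47.3 and 29.99 in the trunk libraries (log2 fold change 3.80, SE 0.42, adjusted p = 0.000677), with OT1 and OT2 above AC.

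Blood genes were also of very high level. All 7 globin genes were called higher, with a median log2 fold change of 4.30, but 0 of 7 were called against the trunk and 3 lay above all 8. HBZ, an embryonic alpha-type globin, had 17368 TPM in AC and 12326 in AO, 369.7, 391, 131 and 26.9 in the midbrain-hindbrain libraries and 4747, 2953, 7857 and 873 in the trunk libraries (log2 fold change 4.44, SE 0.65, adjusted p = 0.0018). HBA1 and HBAD, the other alpha-type chains, had 5781 and 3305 TPM and 3721 and 2182 TPM, also above all 8. For the beta-type genes HBBR, HBE, HBE1 and HBBA, OT1 exceeded AO, as in HBBR with 6883 TPM in AC and 5061 in AO, 278, 327, 88.8 and 2.38 in the midbrain-hindbrain libraries and 3991, 1882, 5770.0 and 554 in the trunk libraries (log2 fold change 3.62, SE 0.89, adjusted p = 0.0162). HBE1 was listed at 0 TPM in all 4 midbrain-hindbrain libraries and was at least 137-fold higher in the area opaca than there, taking 3 reads per library as the limit of a count of 0. Globin genes are close in sequence, so reads may have been shared among the beta-type members, and their separate values are uncertain. Within the trunk the globin sum ran from 2135 TPM in OT2 to 20573 TPM in OT1, and within the area opaca from 24813 TPM in AO to 37650 TPM in AC. The calls of HBBR, HBE, HBE1 and HBBA were lost without AC, when 3 of 7 remained called.

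The regulators of blood formation were called higher in 11 of 15 cases and lower in 1, with a median log2 fold change of 1.51. Against both regions 5 of the 15 were called higher. TAL1, which specifies blood and vessel precursors, had 76.6 TPM in AC and 88.0 in AO, 9.87, 9.52, 10.1 and 9.02 in the midbrain-hindbrain libraries and 21.8, 58.0, 48.2 and 27.1 in the trunk libraries (log2 fold change 2.41, SE 0.30, adjusted p = 0.00102). LMO2, its partner in the same complex, had 413 TPM in AC and 377 in AO, 92.1, 117, 105 and 116 in the midbrain-hindbrain libraries and 178, 366, 232 and 254 in the trunk libraries (log2 fold change 1.55, SE 0.21, adjusted p = 0.00144). Both were called against both regions, and CT2 came nearest to the area opaca in either case. GFI1B, a repressor needed for red cells and platelets, had 58.1 TPM in AC and 43.9 in AO, 0.774, 0.419, 0.181 and 0 in the midbrain-hindbrain libraries and 7.8, 13.1, 18.2 and 5.8 in the trunk libraries (log2 fold change 5.25, SE 0.51, adjusted p = 0.000464). SPI1 and RUNX1, regulators of white cells and of definitive blood stem cells, were lower in level, at 9.67 and 17.7 TPM and at 3.94 and 10.6 TPM, and neither was called against the trunk (adjusted p = 0.113 and 0.0804). In TPM, OT1 exceeded AC for SPI1 and CT2 exceeded AC for RUNX1. GATA2 had 87.0 TPM in AC and 78.7 in AO, 15.2, 15.8, 19.8 and 20.1 in the midbrain-hindbrain libraries and 79.6, 134, 58.4 and 41.6 in the trunk libraries, with CT2 above both area opaca libraries. LDB1, the scaffold of the TAL1 complex, was the 1 called lower (log2 fold change −0.39, SE 0.12, adjusted p = 0.0344), a call that was lost on leaving out any one of AC, AO, CH1, OH1, OH2 and NewCT1.

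Heme synthesis and iron handling were called higher in 11 of 13 cases and lower in 0, with a median log2 fold change of 1.33, and in 7 of 13 without AC and in 7 of 13 without AO. SLC40A1, the iron exporter ferroportin, had 88.0 TPM in AC and 216 in AO, 15.3, 18.8, 23.1 and 15.8 in the midbrain-hindbrain libraries and 21.6, 37.7, 56.4 and 37.5 in the trunk libraries (log2 fold change 2.81, SE 0.29, adjusted p = 0.000559). AO was well above AC, and both exceeded all 8. Against both regions 5 of the 13 genes were called higher. The enzymes of the heme pathway showed smaller differences. ALAS1, at its first step, was at 129 and 147 TPM against 46.8 to 113 TPM (log2 fold change 1.41, SE 0.18, adjusted p = 0.00104). CPOX was at 113 and 114 TPM against 29.6 to 98.9 TPM. Both were called against both regions. TFRC, the transferrin receptor, was not called against the trunk (adjusted p = 0.0872), and its overall call was lost without AC. In the red cell membrane list 2 of 5 genes were called higher and 0 lower. The number higher was 4 without OT1, 1 without AC, CH1, CH2 or CT2, and 0 with 1 lower without AO.

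Vessel genes differed less than blood genes. Of 23 endothelial genes 8 were called higher and 0 lower, with a median log2 fold change of 0.63, and the number called was 3 without AO, 5 without CH1 and 13 without CT2. CDH5, the cadherin of endothelial junctions, had 124 TPM in AC and 182 in AO, 33.1, 49.1, 47.9 and 40.2 in the midbrain-hindbrain libraries and 33.0, 88.3, 60.6 and 88.7 in the trunk libraries (log2 fold change 1.76, SE 0.28, adjusted p = 0.00251). TEK, the receptor of angiopoietins, was at 41.3 and 66.7 TPM against 9.62 to 40.0 TPM (log2 fold change 1.65, SE 0.27, adjusted p = 0.00274). Both were above all 8 and were called against both regions. PECAM1 was called overall (log2 fold change 0.80, SE 0.22, adjusted p = 0.0268), a call that was lost without AO, CH1 or NewCT1, and that of CLDN5, a junction protein of vessels, was lost without AO. KDR, the receptor for vascular endothelial growth factor, had 19.2 TPM in AC and 35.5 in AO, 14.97, 25.9, 27.1 and 23.4 in the midbrain-hindbrain libraries and 14.3, 23.5, 27.0 and 27.7 in the trunk libraries and was not called (log2 fold change 0.55, SE 0.25, adjusted p = 0.125). Leukocyte genes were near the limit of detection. PTPRC, the pan-leukocyte antigen, was at 1.15 and 1.03 TPM against 0.301 to 1.09 TPM, and the integrin ITGB2 at 1.69 and 1.69 TPM against 0 to 0.948 TPM, and 4 of 7 tested genes were called higher, 2 of 7 without AO. The call of CSF1R, a macrophage receptor, was lost without AO.

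Epithelial genes gave a mixed picture. Of 23 tested, 12 were called higher and 4 lower, with a median log2 fold change of 0.83. Against both regions 4 were called higher and 0 lower. KRT7 and KRT18, keratins of simple epithelia, were abundant in every library. KRT7 had 4051 TPM in AC and 5275 in AO, 1752, 1607, 1995 and 1388 in the midbrain-hindbrain libraries and 2242, 4004, 4023 and 2883 in the trunk libraries (log2 fold change 1.28, SE 0.23, adjusted p = 0.00453), and KRT18 had 3007 TPM in AC and 3467 in AO, 1604, 1186, 1748 and 1312 in the midbrain-hindbrain libraries and 1823, 2533, 2992 and 2315 in the trunk libraries (log2 fold change 1.08, SE 0.20, adjusted p = 0.00443). The area opaca was above all 8 in both, though AC lay barely above OT1, and neither was called against the trunk (adjusted p = 0.082 and 0.0642). CDH1, the cadherin of epithelia, was called against both regions and had 87.2 TPM in AC and 138 in AO, 33.1, 28.2, 33.5 and 39.5 in the midbrain-hindbrain libraries and 68.5, 58.6, 97.8 and 63.3 in the trunk libraries (log2 fold change 1.49, SE 0.20, adjusted p = 0.0012). In TPM its OT1 value exceeded AC, while on TMM-scaled counts AC and AO were above all 8. The 4 called lower included GATA3 and DLX3, regulators of surface and extraembryonic ectoderm. GATA3 had 0.629 TPM in AC and 2.1 in AO, 4.16, 9.03, 9.31 and 8.72 in the midbrain-hindbrain libraries and 1.68, 0.853, 3.5 and 9.68 in the trunk libraries (log2 fold change −1.39, SE 0.44, adjusted p = 0.0423). DLX3 had 6.32 TPM in AC and 2.48 in AO, 24.1, 20.5, 21.2 and 24.1 in the midbrain-hindbrain libraries and 13.7, 9.43, 4.82 and 8.14 in the trunk libraries (log2 fold change −1.33, SE 0.41, adjusted p = 0.0385). Their area opaca values overlapped the trunk values, and both calls were lost without AO, OH1, OH2, CH2 or NewCT1 and, for 1 of the 2 genes, without AC, CH1, CT2 or OT2. Lower calls numbered 0 of 23 without AO or OH2, 1 of 23 without CH2, OH1 or NewCT1 and 2 of 23 without CT2.

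Mesodermal regulators that the area opaca shares with the lateral plate were called higher in 3 of 16 cases and lower in 2. Their median log2 fold change was −0.25, and 4 were called lower without AC. The shares called, 18.8% higher and 12.5% lower, were near the 18.9% and 14.9% of all tested genes. HAND1, a regulator of lateral and extraembryonic mesoderm, had 160.5 TPM in AC and 160.3 in AO, 102, 96.3, 95.3 and 82.6 in the midbrain-hindbrain libraries and 186, 229, 126 and 140.1 in the trunk libraries (log2 fold change 0.66, SE 0.12, adjusted p = 0.00395). It was above the midbrain-hindbrain libraries and below NewCT1 and CT2. FOXF1, of splanchnic mesoderm, was in the same position, with 28.2 and 46.7 TPM against 59.6 and 77.8 TPM in NewCT1 and CT2, and its call was lost without AO. TBX3 was called higher (log2 fold change 1.22, SE 0.16, adjusted p = 0.00128) and was not called against the trunk (adjusted p = 0.07). ISL1, of the second heart field and pharyngeal mesoderm, was lower, with 0.239 and 2.32 TPM against 3.93 to 18.4 TPM (log2 fold change −2.59, SE 0.64, adjusted p = 0.0161).

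Genes of BMP signalling, which patterns the ventral and extraembryonic mesoderm, were called higher in 2 of 17 cases and lower in 5, with a median log2 fold change of −0.35. The lower genes were 3 without AC and 9 without OT1. The ligand BMP4 had 30.7 TPM in AC and 40.0 in AO, 66.2, 63.1, 63.4 and 60.5 in the midbrain-hindbrain libraries and 156, 126, 79.5 and 63.7 in the trunk libraries (log2 fold change −0.88, SE 0.15, adjusted p = 0.00378). It was below all 8 and was called against both regions, with NewCT1 and CT2 highest. The secreted antagonists CHRD and NOG were also lower. CHRD, chordin of the organizer and notochord, had 1.4 TPM in AC and 0.413 in AO, 27.0, 28.6, 50.4 and 55.4 in the midbrain-hindbrain libraries and 131, 98.2, 34.5 and 21.7 in the trunk libraries (log2 fold change −5.37, SE 0.52, adjusted p = 0.000452), and NOG, noggin, was at 1.59 and 4.87 TPM against 8.35 to 18.6 TPM (log2 fold change −1.51, SE 0.43, adjusted p = 0.0276). BMPER, an extracellular modulator that binds BMPs, was below all 8 with 3.76 and 3.55 TPM against 3.89 to 20.1 TPM. BAMBI, a decoy receptor that is itself induced by BMP, was called higher by a small amount (log2 fold change 0.54, SE 0.15, adjusted p = 0.0253), a call that was lost without AC, AO, CH1, NewCT1 or CT2. The call of NOG was lost without AC, CH1, OH1 or NewCT1.

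Of the 22 lists, that of the neural tube had the lowest median. Of 24 tested genes 0 were called higher and 21 lower, with a median log2 fold change of −3.88, or −3.61 with genes at 0 reads set to their bound. SOX2, a regulator of neural progenitors and of the neuromesodermal zone, had 0.0454 TPM in AC and 0.122 in AO, 63.7, 48.5, 57.0 and 62.2 in the midbrain-hindbrain libraries and 23.4, 16.3, 10.1 and 26.4 in the trunk libraries (log2 fold change −8.11, SE 0.60, adjusted p = 0.000337, chromosome 9, 16360134 to 16362594 in GRCg7w). These area opaca values rested on 2 and 7 reads, and OT1 was the lowest of the embryonic libraries. SOX1, of committed neural progenitors, had 0 reads in AC and AO and was at least 49.1-fold lower than the embryonic mean. Bounds of this kind for lower genes are against the mean of all 8 libraries, and none was set for the trunk alone. SOX21 had 0.619 TPM in AC and 0.201 in AO, 31.0, 25.6, 29.5 and 27.8 in the midbrain-hindbrain libraries and 4.88, 5.59, 3.52 and 9.3 in the trunk libraries (log2 fold change −4.64, SE 0.58, adjusted p = 0.00101). SOX3 had 5.9 TPM in AC and 1.96 in AO, 46.1, 34.01, 43.3 and 57.6 in the midbrain-hindbrain libraries and 7.71, 6.79, 5.88 and 16.1 in the trunk libraries (log2 fold change −2.01, SE 0.52, adjusted p = 0.0202), so that AC overlapped OT1 at the low end of the trunk, and its call was lost without AO. PAX6 was called overall (log2 fold change −2.53, SE 0.83, adjusted p = 0.0478) but not against the trunk (adjusted p = 0.357), and that call was lost on leaving out any 1 library other than OT1 and OT2. CDH2, the cadherin of neural and mesodermal cells, was still present in the area opaca, with 13.2 TPM in AC and 16.0 in AO, 158, 219, 192 and 235 in the midbrain-hindbrain libraries and 150.1, 139, 63.8 and 116 in the trunk libraries (log2 fold change −3.07, SE 0.23, adjusted p = 0.000344). It was below all 8 by several times. IRX3 was at 1.08 and 1.72 TPM against 2.12 to 45.5 TPM, and 6 of 6 IRX genes were called lower, 3 of 6 without AC. Against both regions 1 of the 6 was called lower. The IRX sum was 5.96 TPM in AC and 7.32 TPM in AO, which overlapped the trunk controls (7.59 TPM in NewCT1 and 4.08 TPM in CT2), and their median log2 fold change was −4.30 against the head and −0.93 against the trunk.

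The 15 genes with the smallest log2 fold changes among the 797 were FOXB1, ZIC5, DMRTA2, EN2, FGF8, SOX2, FGF3, ZIC2, PAX3, TBX22, NFASC, NGFR, NTN1, RFX4 and CHRD. Most regulate or build the neural tube. FOXB1, a forkhead factor of the neural plate, and ZIC5, a zinc finger factor of the dorsal neural tube, had 0 reads in AC and AO, and were at least 89.5-fold and 90.8-fold lower than the embryonic mean. DMRTA2 and EN2, the latter of the midbrain-hindbrain boundary, also had 0 reads, with bounds of at least 72.1-fold and 99.4-fold, and both were far lower in the trunk, where EN2 was at 0.149 to 0.613 TPM, than in the head. FGF8, the growth factor of the midbrain-hindbrain boundary and the tail end, had 0 TPM in AC and 0.177 in AO, 35.9, 41.4, 43.3 and 32.8 in the midbrain-hindbrain libraries and 159, 131, 24.3 and 4.9 in the trunk libraries (log2 fold change −8.41, SE 1.01, adjusted p = 0.000859). It had 0 reads in AC and 8 in AO, and its embryonic maximum was in NewCT1. FGF3 had 3 reads in AC and 0 in AO, a level 252-fold lower than the embryonic mean with a counting interval of 86.2 to 1222. ZIC2 had 0.113 TPM in AC and 0.104 in AO, 38.6, 38.9, 47.2 and 51.1 in the midbrain-hindbrain libraries and 19.5, 14.96, 5.19 and 15.9 in the trunk libraries (log2 fold change −7.41, SE 0.57, adjusted p = 0.000344). It was below all 8, with OT1 lowest among them. PAX3, of the dorsal neural tube, crest and somites, had 0.17 TPM in AC and 0.338 in AO, 25.1, 32.2, 24.4 and 29.8 in the midbrain-hindbrain libraries and 22.6, 24.0, 6.33 and 13.6 in the trunk libraries (log2 fold change −5.91, SE 0.41, adjusted p = 0.000321). Guidance and adhesion genes were represented by NTN1, netrin of the floor plate, at 0.515 and 0.0982 TPM against 8.24 to 33.4 TPM, and by NFASC, neurofascin, at 0.0823 and 0.0813 TPM against 0.671 to 19.3 TPM.

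Neural crest genes were called lower in 6 of 10 cases and higher in 0, with a median log2 fold change of −0.84, and in 3 of 10 without CT2. SOX10 was listed at 0 TPM in AC and 0.304 TPM in AO and was high only in the midbrain-hindbrain, with 24.5 to 32.4 TPM. It was not called against the trunk (adjusted p = 0.738), and its overall call was lost without NewCT1 or CT2.

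Paraxial mesoderm genes were called lower in 7 of 13 cases and higher in 0, with a median log2 fold change of −2.15. TBX6 and MSGN1, regulators of the presomitic mesoderm, were lower than in the trunk. TBX6 had 2.45 TPM in AC and 0.811 in AO, 0.295, 0.377, 0.539 and 1.3 in the midbrain-hindbrain libraries and 119, 105, 17.6 and 4.38 in the trunk libraries, and MSGN1 had 0.0838 TPM in AC and 0.0736 in AO, 0, 0.0947, 0.153 and 0 in the midbrain-hindbrain libraries and 83.2, 87.7, 12.97 and 0.805 in the trunk libraries. Against the trunk the log2 fold changes were −4.13 (adjusted p = 0.0113) and −7.60 (adjusted p = 0.0125), and against all embryonic tissue neither was called. The trunk itself varied, with OT1 and OT2 far below NewCT1 and CT2. LFNG, a modifier of Notch receptors in the segmentation clock and the neural tube, had 11.2 TPM in AC and 10.9 in AO, 83.9, 87.4, 90.2 and 91.2 in the midbrain-hindbrain libraries and 63.1, 47.0, 24.6 and 38.7 in the trunk libraries (log2 fold change −2.15, SE 0.19, adjusted p = 0.000384) and was below all 8. TCF15, of the somite epithelium, was called lower against both regions, and its overall call was lost without AC, AO, OH1 or OH2.

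Axial genes were also lower. Heart sarcomere genes were mostly called lower against the mean of the embryonic groups. Yet 0 of 11 lay below all 8, and 1 of 11 was called lower against both regions. In the notochord and floor plate list 4 of 8 genes were called lower and 0 higher, with a median log2 fold change of −1.85. TBXT, brachyury of the streak and notochord, had 2.02 TPM in AC and 1.46 in AO, 6.69, 7.73, 14.6 and 13.4 in the midbrain-hindbrain libraries and 214, 192, 38.3 and 21.4 in the trunk libraries (log2 fold change −3.76, SE 0.33, adjusted p = 0.000388), and SHH, the signal of notochord and floor plate, had 7.59 TPM in AC and 1.62 in AO, 48.2, 40.9, 47.3 and 46.6 in the midbrain-hindbrain libraries and 56.0, 38.2, 29.3 and 38.3 in the trunk libraries (log2 fold change −2.87, SE 0.56, adjusted p = 0.00629). Both were below all 8. Of 11 heart sarcomere genes 7 were called lower and 1 higher, with a median of −2.14, and the lower genes were 4 without AC and 3 without AO. ACTC1, cardiac actin, had 7.37 TPM in AC and 3.05 in AO, 143, 1778, 1038 and 2087 in the midbrain-hindbrain libraries and 3.33, 4.49, 865 and 714 in the trunk libraries, and TNNT2, cardiac troponin T, had 8.13 TPM in AC and 22.3 in AO, 65.1, 485, 313 and 536 in the midbrain-hindbrain libraries and 0.827, 1.32, 165 and 207 in the trunk libraries. For both the control trunk lay within or below the range of the area opaca, and the high values were in the midbrain-hindbrain and in OT1 and OT2. The call of ACTC1 was lost without AO, and that of TNNT2 without AC, AO, OH2 or any 1 trunk library.

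Genes of cell division and of cholesterol synthesis, which every proliferating tissue uses, differed by smaller amounts. For cell division 11 of 18 genes were called lower and 0 higher, with a median log2 fold change of −0.42. Fewer were called lower without AO, and not every call then was lower. MCM2, of the replicative helicase, had 59.8 TPM in AC and 60.2 in AO, 186, 164, 157 and 154 in the midbrain-hindbrain libraries and 176, 147, 103 and 108 in the trunk libraries (log2 fold change −0.99, SE 0.12, adjusted p = 0.000879). TOP2A, the topoisomerase of dividing cells, was at 81.6 and 108 TPM against 157 to 251 TPM (log2 fold change −0.91, SE 0.11, adjusted p = 0.000932). In either gene the area opaca was below all 8, with OT1 nearest. For cholesterol synthesis 5 of 18 genes were called lower and 0 higher, with a median of −0.31, and 3 of 18 without AO. SREBF2, the main regulator of the pathway, was at 48.8 and 49.2 TPM against 74.8 to 131 TPM.

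**Figure D3:**
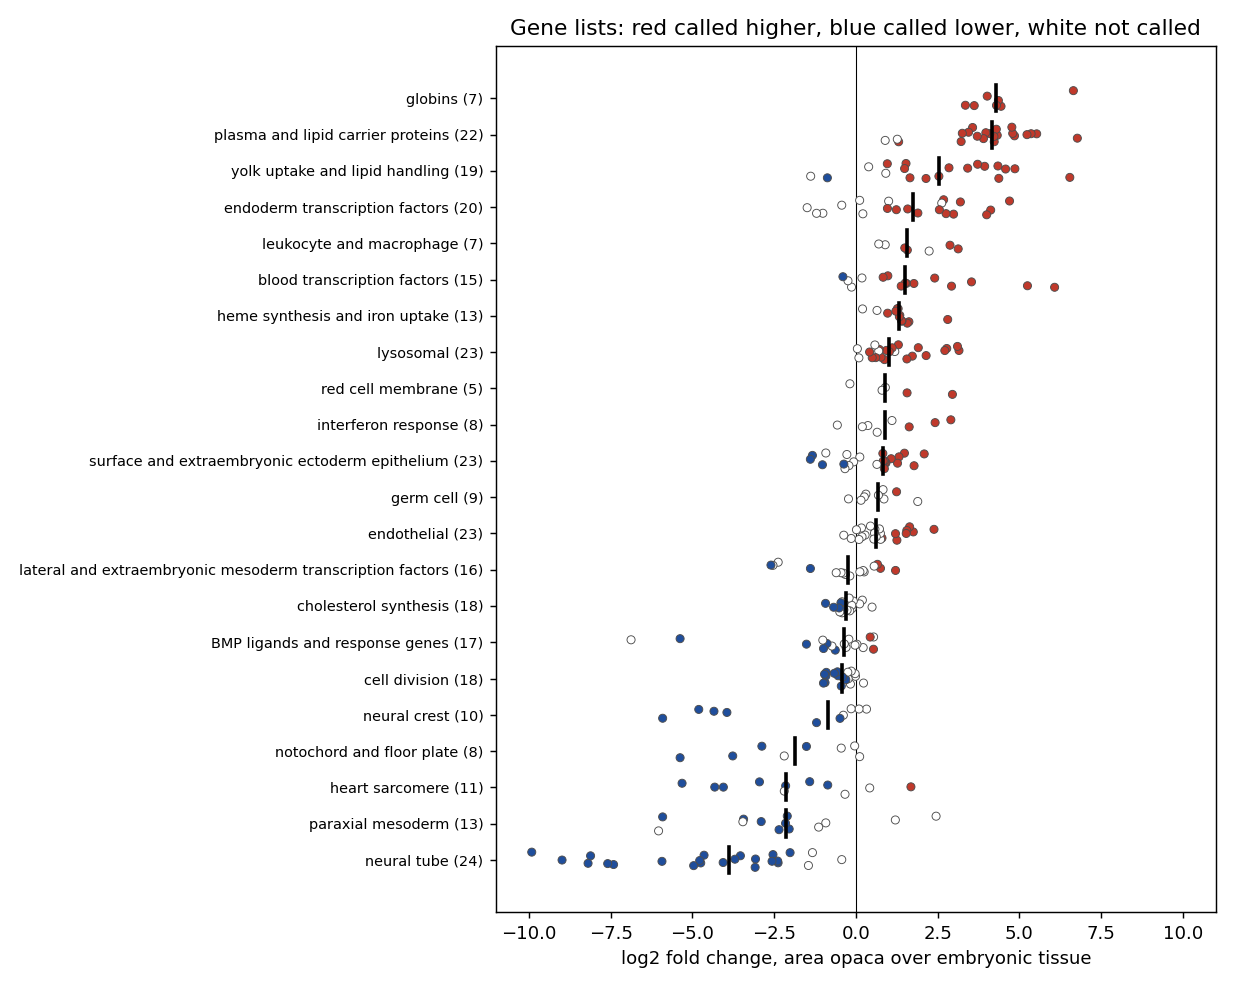
Log2 fold change of area opaca over embryonic tissue for the tested genes of each list (number in brackets), with one point per gene (red called higher, blue called lower, white not called) and a black bar at the median. Plasma carriers (median 4.16) and globins (4.30) lie to the right and neural tube genes (−3.88) to the left, while endothelial genes (0.63) and BMP genes (−0.35) lie near 0.

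Interferon-response genes were called higher in 3 of 8 cases and lower in 0, with a median log2 fold change of 0.88. IFIH1, a sensor of double-stranded RNA, had 17.5 TPM in AC and 22.6 in AO, 1.78, 1.92, 1.78 and 1.36 in the midbrain-hindbrain libraries and 1.84, 4.65, 19.3 and 4.42 in the trunk libraries (log2 fold change 2.91, SE 0.45, adjusted p = 0.00228), with OT1 between AC and AO in TPM. Germ cell genes were called higher in 1 of 9 cases, with a median of 0.69 in the fit and −0.01 on log2(TPM + 1). That 1 call was lost under DESeq2, without the low-count filter and on leaving out any 1 library other than OT1, without which 2 were called. DDX4 was at 0.175 and 0.254 TPM, within the embryonic range, and NANOG at 28.2 and 4.18 TPM against up to 33.3 TPM, and neither was called (adjusted p = 0.739 and 0.129). The NANOG difference had the opposite sign without AC (log2 fold change −0.13).

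Gene families differed in how they were divided. Of 295 solute carriers 35.9% were called higher and 10.2% lower, and on log2(TPM + 1) 77 were called higher and 62 lower. On that scale 1949 of all 16915 tested genes were called higher and 5242 lower. Of 9 apolipoproteins 7 were called higher and 1 lower, the latter being APOD, which had 0 reads in AC and AO and was at least 34.5-fold lower. Keratins were called higher in 10 of 16 cases (4 without AO), claudins in 7 of 13 (4 without AO) and serpins in 7 of 14 (4 without AC), and lower in 0 cases each. Called higher against both regions were 2 of the 9 apolipoproteins, 1 of the 16 keratins, 5 of the 13 claudins and 4 of the 14 serpins. The same share of all tested genes was 8.97%. Above all 8 lay 6 apolipoproteins, 5 keratins, 3 claudins and 6 serpins. The summed level of all 21 keratins, tested or not, was 9616 TPM in AC and 11183 TPM in AO. It was 3623 (OH2) to 9485 TPM (CT2) in embryonic tissue. Families of developmental regulators differed among themselves. Called lower were 10 of 17 SOX genes, 6 of 8 PAX genes and 12 of 36 forkhead genes, with 1, 0 and 6 called higher (2 forkhead genes without AO), and 1 of 8 LIM homeobox genes, with 0 higher. The LIM homeobox share called lower, 12.5%, and the forkhead share called higher, 16.7%, were near the 14.9% and 18.9% of all tested genes. Of the GATA factors 2 of 5 were called higher and 1 lower, and of the caudal genes 2 of 3 higher and 0 lower. Against both regions 1 of the 3 caudal genes was called higher, and 0 of 3 lay above all 8. The caudal sum was 129 TPM in AC and 122 TPM in AO. It was 16.0 (OH2) to 19.3 TPM (OH1) in the midbrain-hindbrain, and 323, 331, 194 and 75.7 TPM in NewCT1, CT2, OT1 and OT2. The caudal median log2 fold change was 3.06 against the head and −0.27 against the trunk. ZIC genes were called lower in 5 of 5 cases, being 4 of 5 without NewCT1, 5 of 5 without OT1 and 3 of 5 without any other 1 library. Collagens were called lower in 13 of 40 cases (8 without AC) and higher in 7 (2 without AO and 4 without CH1 or CH2). Their share called higher, 17.5%, was near the 18.9% of all tested genes. HOX genes, which set position along the trunk, were called higher in 2 of 29 cases and lower in 1, but higher in 11 without OT1, in 6 without OT2 and in 12 without both. Their median log2 fold change was 0.34 in the fit and −0.28 on log2(TPM + 1), and it was 2.42 against the midbrain-hindbrain and −1.97 against the trunk. The summed level of all 35 HOX genes, tested or not, was 358 TPM in AC and 225 TPM in AO. It lay between the 84.3 to 132 TPM of the midbrain-hindbrain and the 339.5 to 3106 TPM of the trunk, with AC overlapping OT2, the lowest of the trunk libraries. The median also changed sign with the scaling for the ribosomal proteins (5 of 69 called higher and between 1 and 9 on leaving out 1 library, median 0.16 and −0.15) and for the ABC transporters (15 of 39 higher and 6 lower, median 0.18 and −0.12).

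The embryonic libraries were not equally far from the area opaca. For 1523 of the 2688 higher genes (56.7%) OT1 was the nearest embryonic library, followed by OT2 for 490, CT2 for 294 and OH2 for 29. For the 2300 lower genes OT1 was nearest in 944 cases (41.04%) and OT2 in 664. The level of the 1101 higher genes, as a median percentage of the mean of AC and AO on TMM-scaled CPM, was 35.1% to 37.8% in the 4 midbrain-hindbrain libraries, 35.8% in NewCT1, 44.8% in CT2, 62.6% in OT1 and 50.02% in OT2. The 797 lower genes stood at 196% to 212% of the area opaca in the midbrain-hindbrain, 208% in NewCT1, 179% in CT2, 145% in OT1 and 152% in OT2. The trunk pools with exogenous Otx2 were therefore nearest on both sides. CT2 also lay nearer than NewCT1, and with 2 libraries each the parts of treatment, dissection and pool cannot be told apart. For the 20 plasma carriers called higher the median percentage was 0.768% in CH1, 1.04% in OH2, 4.93% in NewCT1, 14.1% in CT2, 34.7% in OT1 and 18.4% in OT2. For the 7 globins it was 53.1% in NewCT1, 18.3% in CT2, 73.3% in OT1 and 4.93% in OT2. The trunk libraries thus had another order by globins than by plasma carriers, with NewCT1 above CT2 and OT2 for the first and below both for the second.

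**Figure D4:**
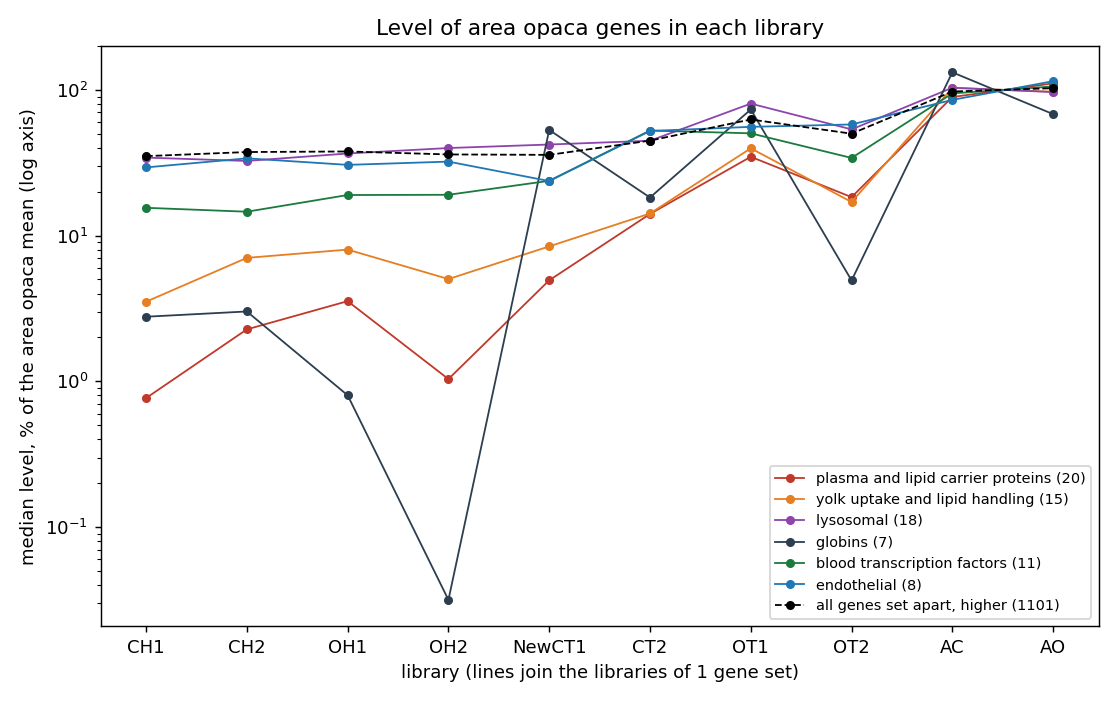
TMM-scaled CPM in each library (x axis) as a percentage of the mean of AC and AO (y axis, log scale), as the median over the called-higher genes of 6 lists and over the 1101 higher genes, with lines that only join the points of a set. The 1101 higher genes have medians of 35.1% to 62.6%, the plasma carriers of 0.768% (CH1) to 34.7% (OT1) and the globins of 4.93% (OT2) to 73.3% (OT1) within the trunk.

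Together the 1101 higher genes took 18.6% of all TPM in AC and 21.4% in AO, against 6.34% (CH1) to 12.1% (OT1) in embryonic tissue. The 797 lower genes took 2.90% and 3.004%, against 4.80% (OT1) to 7.52% (OH2).

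The 10 libraries were also split by treatment, and genes chosen in either part were read in the rest. These are the same libraries that the rule used, so the counts are a description. From the control libraries alone, 326 genes had at least 4 times the CPM in AC of the highest of CH1, CH2, NewCT1 and CT2, and in AO 283 of them (86.8%) lay above all of OH1, OH2, OT1 and OT2, against 30.7% of all tested genes. Of 66 genes chosen as lower, 63 (95.5%) lay below all 4, against 32.2% of all genes. Of 77 higher genes chosen in the Otx2 libraries, 75 (97.4%) lay in AC above all 4 control embryonic libraries, against 34.5% of all genes. Of 135 lower genes chosen there, 72 (53.3%) lay below all 4, against 31.6%. The chosen genes differed at least 4 times in the libraries of choice, while all tested genes include many with small differences. Higher shares than those of all genes were therefore likely from the start. The lower genes chosen in the Otx2 libraries were the group that carried over least.

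The 2 area opaca libraries were themselves compared without a test, since each treatment had 1 library. Of 8990 genes of at least 10 TPM on average, 38 (0.423%) were at least 4 times higher in AO and 58 (0.645%) at least 4 times higher in AC. At least 2-fold apart in either direction were 4.15% of the genes between AC and AO, against 2.71% between CH1 and CH2, 2.06% between OH1 and OH2, 4.04% between NewCT1 and CT2 and 6.50% between OT1 and OT2. At least 4-fold apart were 1.07% of the genes between AC and AO. The same share was 0.845% for CH, 0.812% for OH, 0.434% for CT and 1.09% for OT. The SD of the log2 ratio was 0.65 for AC and AO, against 0.57 (CH), 0.40 (OH), 0.43 (CT) and 0.56 (OT). That SD was larger for AC and AO than for any of the 4 other pairs. Among the 1101 higher genes 3.63% were at least 2-fold apart between AC and AO, with 19 higher in AO and 21 in AC, and among the 797 lower genes 4.27%. In the duplicates the same shares of the higher genes were 5.63% (CH), 8.45% (OH), 16.2% (CT) and 14.4% (OT). Both sets were chosen from AC and AO together, which favours genes with close values in these 2 libraries, so the shares are not comparable as a measure of spread.

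A few of the higher genes stood out in this comparison and were chosen for their ratio, so their values are a description. AQP8, a water channel, was at 334 TPM in AC and 59.8 TPM in AO, against at most 45.7 TPM in embryonic tissue. CD36, a receptor for fatty acids and lipoproteins, was at 6.81 TPM in AC and 34.1 TPM in AO, against at most 3.72 TPM, and the sodium and proton exchanger SLC9A3 at 5.91 and 32.0 TPM, against at most 4.95 TPM. TFCP2L1, an epithelial transcription factor, was at 32.0 and 128 TPM, against at most 25.5 TPM. That the lower value of each pair was above all 8 follows from the rule that chose the 1101 higher genes. Whether treatment, dissection or the pool of embryos set these ratios cannot be told apart with 1 library each.

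**Figure D5:**
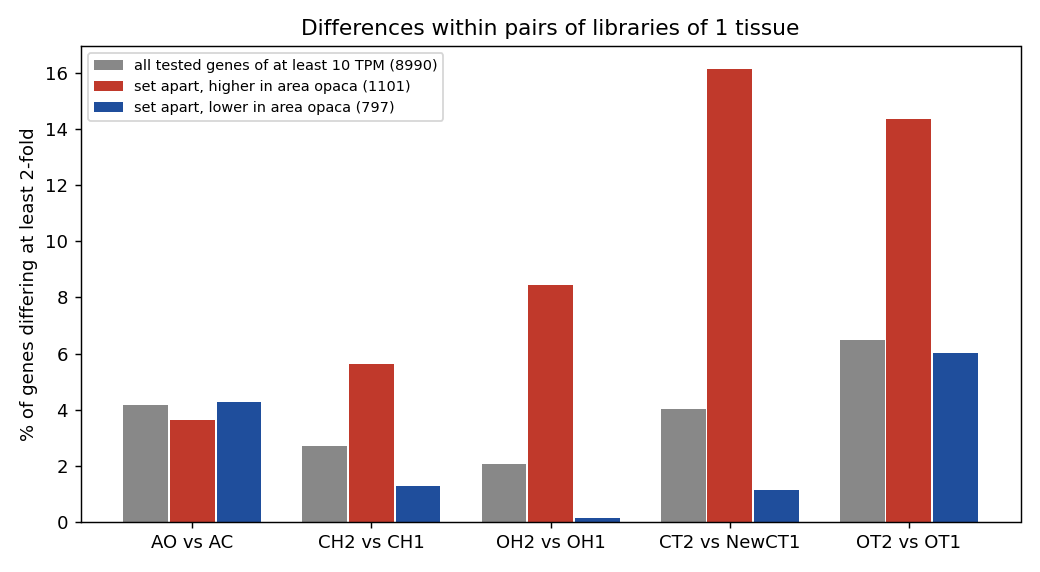
Percentage of genes (bars, y axis) that differed at least 2-fold between the 2 libraries of each pair, for all tested genes of at least 10 TPM and for the 1101 higher and 797 lower genes. For all genes the share is 4.15% for AC and AO and 4.04% for NewCT1 and CT2. The remaining pairs run from 2.06% (OH) to 6.50% (OT). For the higher genes AC and AO (3.63%) have the smallest share of the 5 pairs, in a set chosen from AC and AO together.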

How the data were processed

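Poly-A RNA of 10 libraries (stranded TruSeq mRNA kit, paired reads) was sequenced, and the authors mapped the reads to the chicken assembly GRCg7w with mouse Otx2 and EGFP added and quantified genes with StringTie. The aligner, versions and strand setting are not given in the sources used here. The authors deposited read counts per gene, whole numbers without normalization, and TPM, scaled by the authors for transcript length and library total. A further 40 columns (FPKM and transcript-level values) were not used. Chromosome names came from matching 23112 of 25443 gene identifiers to the RefSeq table of another assembly, GRCg7b, and starts and ends are those of GRCg7w.

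Counts of the 16915 genes passing the edgeR low-count filter by 5 groups (CH, OH, CT, OT and area opaca, with AC and AO as its 2 libraries) were fitted with TMM factors and the quasi-likelihood test (R 4.3.3, edgeR 4.0.16), with Benjamini-Hochberg adjustment over all genes and a threshold of 0.05. The common dispersion was 0.09243 (a coefficient of variation of 30.4%) with 5 residual degrees of freedom. The contrasts were area opaca minus the mean of the 4 embryonic groups, of the head groups and of the trunk groups. Each SE given is the absolute log2 fold change divided by the square root of the F statistic of the test. It is approximate, above all where the area opaca had few reads. Each library pools 4 embryos, but it is not clear whether libraries of different tissues share embryos. Nothing says that duplicate pools came from separate experiments either. The p-values therefore measure only the spread between these libraries. A count of 0 allows up to 3 reads, 0.0735 to 0.105 CPM on unscaled library totals, which covers counting error only. The bounds on fold used library sizes scaled by the TMM factors. On simulated data for the first contrast (16546 genes), 48 of 100 genes changed 2-fold and 94 of 100 changed 4-fold were called, with 10 unchanged genes called. The simulation gave all libraries a common level, apart from the changed genes in AC and AO. It held no differences among the embryonic groups or between AC and AO, so these rates need not hold for the real data.

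The named genes were the 15 at either end of the narrower set, up to 4 called genes per list or family by size of change, and the vector genes and OTX2. Others were chosen after their values were seen. The members and the 22 lists and 19 families were chosen with earlier results of these data known. Alternatives were DESeq2 1.42.0, RLE factors, no filter, a fold threshold, limma 3.58.1 on log2(TPM + 1) and log2(TPM + 0.1), a replicate block, an additive model, AC and AO as separate groups, and leaving out each library. Whether replicate numbers pair the libraries was checked from the correlation of deviations between groups. It ran from −0.1508 to 0.1398, so they were not taken as pairs. The check covered CH, OH, CT and OT and cannot tell whether AC or AO shared embryos with them. Results for some genes are not reported here.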

Additional observations from a re-analysis of the deposited data

Results flagged for a closer look

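Of the 16915 tested genes, 651 had AC and AO on opposite sides, on TMM-scaled counts. AC lay beyond the 4 control embryonic libraries on one side and AO beyond the 4 Otx2 embryonic libraries on the other side. Over all tested genes, AC was above its 4 controls in 34.5% and below them in 31.6%. AO was above its 4 Otx2 libraries in 30.7% and below them in 32.2%, so each condition alone was common. In 342 of the 651 genes AC was above its controls and AO below its Otx2 libraries, and in 309 the reverse. The 651 were few beside the 4988 genes with AC and AO on the same side of all 8, although that rule is stricter. Of the 651, 376 reached 10 TPM in at least 1 library. What drew attention to them is that the tissue difference had opposite directions without and with exogenous Otx2. With 1 area opaca library per treatment, this difference was not tested. Many of the abundant ones were ribosomal protein genes with small differences, whose direction depends on the scaling.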

How the results depend on the processing

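Under RLE factors, no filter, DESeq2, the additive model, and AC and AO as separate groups, the counts against all embryonic tissue and against both regions stayed within 1.5 times of the reported ones. The fold threshold of 1 on the log2 scale left 889 higher and 433 lower genes against all embryonic tissue and 60 and 97 against both regions. On log2(TPM + 1) the counts were 1949 higher and 5242 lower, and 3285 lower against both regions, and on log2(TPM + 0.1) they were 1879 and 5061, with 821 and 2870 against both regions. The number of genes on the same side of all 8 was 1684 higher on unscaled counts, 1438 higher and 4659 lower on TPM, and 348 higher and 277 lower with a margin of 2 times. The 6 embryonic libraries left without OT1 and OT2 (chosen after seeing the data) gave 4088 and 3601. Leaving out 1 library gave 1923 to 3431 higher and 1731 to 2622 lower genes against all embryonic tissue. The counts were 546 to 1700 and 609 to 1292 against both regions, and 2708 to 4397 and 2326 to 4150 on the same side. The counts on the same side could only stay or rise on leaving out libraries. A fold of 2 in place of 4 gave 180 genes higher in AO and 193 higher in AC. The replicate block gave 3085 higher and 2392 lower genes, and 1350 and 1084 against both regions. The replicate numbers were not taken as pairs in the main fit. Of 216 named genes, 36 without AC and 41 without AO lost their call, and 2, NANOG and ALB, changed sign without AC. Their log2 fold changes on leaving out 1 library ran from −0.13 to 2.68 and from −0.31 to 1.99, and neither was called in the full data. No other alternative changed the sign of a named gene. The cause of these changes was not tested. The promoter motif alternative was not run, as promoter sequences were not used here. The area opaca rests on 2 libraries of different treatment, so treatment and pool cannot be told apart within it.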

Other observations

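Some groups of genes not among the lists were looked at after their values were seen, so they carry no support of their own. Subunits of the respiratory chain and ATP synthase, which make ATP in mitochondria, were called higher in the area opaca in 40 of 87 cases and lower in 1, with a median log2 fold change of 0.41, and in 8 and 5 cases on log2(TPM + 1), with a median of 0.09. The hnRNP proteins, which package and splice nuclear RNA, were called lower in 11 of 17 cases and higher in 0, with a median of −0.46, and lower in 16 on log2(TPM + 1). Subunits of the CCT chaperonin, which folds actin and tubulin, were called lower in 4 of 7 cases and higher in 0, and lower in 6 on log2(TPM + 1). Of all 16915 tested genes, 18.9% were called higher and 14.9% lower in the fit. On log2(TPM + 1) 1949 of them were called higher and 5242 lower.

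By chromosome, 22 of 34 tested genes of chromosome 32 were called higher (64.7%, against 18.9% of all genes), and 1 of them lay above all 8, since OT1 overlapped the area opaca. Many are uncharacterized genes that resemble each other, so their separate counts are uncertain. On chromosome Z 180 of 793 genes were called higher (22.7%) and 59 lower (7.44%), against 18.9% and 14.9% of all genes. The summed TPM of 155 W-linked genes was 478 in AO and 253 in CH1 and between 781 and 2279 in the other libraries, with 1917 in AC. How these differences in W-linked level relate to the chromosome Z counts was not tested.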
